A study of Homo sapiens with 6 samples.

Results

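The genes described here encode the actomyosin apparatus of the cell and the contractile proteins known from smooth muscle. They are 48 genes chosen by name, and 42 of them had a probe set annotated with exactly 1 gene symbol, out of 18417 genes so measured on 33297 probe sets. The members not analysed here are FLNA, FLNC, TPM3, FHL1, MKL1 and EZR. The RNA of 3 samples of MCF10A-SNAI1 cells and 3 of untransfected MCF10A cells was hybridized to 6 Affymetrix HuGene arrays, which the study describes as independent repeats without saying what was repeated. MCF10A is an established human line derived from normal breast epithelium, which does not form tumours. The MCF10A-SNAI1 line was made elsewhere by transfection of a SNAI1-Flag plasmid with a CMV enhancer and a chicken beta-actin promoter, followed by puromycin selection. Both lines were kept in mammary epithelial medium to which cholera toxin was added. Whether MCF10A-SNAI1 is a single clone was not stated in the methods, and no line with an empty plasmid was put on the arrays, so plasmid, selection and SNAI1 cannot be told apart. All values are log2 of the expression level as the authors deposited it, and log2 fold changes were taken as the mean of MCF10A-SNAI1 less that of MCF10A. A gene was called when limma gave a p below 0.01 after Benjamini-Hochberg adjustment over the whole array and the change exceeded 2-fold, the thresholds of the study's methods.

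Actin filaments are pulled against each other by bipolar filaments of myosin II, which is switched on when its regulatory light chain is phosphorylated. Tropomyosin, calponin, caldesmon and transgelin lie along the filament, alpha-actinin and filamin cross-link it, and talin, vinculin and zyxin tie its end to integrins in focal adhesions. In epithelial sheets much of this machinery sits in a belt along cell junctions, whereas spread mesenchymal cells build stress fibres. Many of the genes are classical targets of serum response factor, SRF, which binds the CArG box and is activated by the actin-sensing coactivator MKL1. Transcripts shared with smooth muscle, such as ACTA2 and TAGLN, are known markers of myofibroblasts and of epithelial-mesenchymal transition.

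The promoter windows that bear on this background are shown first, because the CArG box is the sequence by which the SRF targets among the members are known. The RefSeq table of GRCh38.p14 gave windows of 300 bases, 250 before and 50 after a transcription start, for 37 of the 42 measured members. No window was given for ACTB, FSCN1, VIL1, TAGLN and MYL9. The windows of 3 members whose level was higher in MCF10A-SNAI1 cells and that hold a CArG box come first, followed by ACTG2 with a pair of boxes, CNN2, which was lower, and TPM1, whose window held no box. Capitals mark the CArG box, in the 5′ to 3′ direction of the gene.
TGFB1I1, chr16:31472955-31473254, plus strand: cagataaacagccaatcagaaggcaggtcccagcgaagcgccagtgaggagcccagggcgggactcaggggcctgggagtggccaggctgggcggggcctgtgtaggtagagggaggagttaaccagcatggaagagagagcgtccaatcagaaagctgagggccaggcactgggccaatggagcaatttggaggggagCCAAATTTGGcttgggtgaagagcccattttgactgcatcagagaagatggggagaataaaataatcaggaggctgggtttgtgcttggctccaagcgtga
LPP, chr3:188212462-188212761, plus strand: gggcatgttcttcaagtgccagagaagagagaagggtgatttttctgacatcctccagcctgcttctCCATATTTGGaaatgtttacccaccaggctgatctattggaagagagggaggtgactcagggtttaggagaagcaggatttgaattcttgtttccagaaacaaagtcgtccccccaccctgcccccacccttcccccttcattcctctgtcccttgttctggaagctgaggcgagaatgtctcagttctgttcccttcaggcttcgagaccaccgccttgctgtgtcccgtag
MYLK, chr3:123620499-123620798, minus strand: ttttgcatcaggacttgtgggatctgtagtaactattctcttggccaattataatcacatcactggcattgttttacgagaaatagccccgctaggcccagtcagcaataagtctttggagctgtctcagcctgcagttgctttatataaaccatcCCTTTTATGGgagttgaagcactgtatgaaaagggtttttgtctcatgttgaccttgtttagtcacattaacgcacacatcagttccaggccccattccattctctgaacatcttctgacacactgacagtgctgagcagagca
ACTG2, chr2:73892758-73893057, plus strand: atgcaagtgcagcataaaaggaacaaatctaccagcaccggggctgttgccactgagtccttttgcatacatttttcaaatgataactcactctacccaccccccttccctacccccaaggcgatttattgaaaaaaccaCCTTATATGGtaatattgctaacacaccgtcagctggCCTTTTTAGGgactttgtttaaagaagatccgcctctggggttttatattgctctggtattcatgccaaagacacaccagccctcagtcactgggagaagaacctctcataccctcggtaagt
CNN2, chr19:1026358-1026657, plus strand: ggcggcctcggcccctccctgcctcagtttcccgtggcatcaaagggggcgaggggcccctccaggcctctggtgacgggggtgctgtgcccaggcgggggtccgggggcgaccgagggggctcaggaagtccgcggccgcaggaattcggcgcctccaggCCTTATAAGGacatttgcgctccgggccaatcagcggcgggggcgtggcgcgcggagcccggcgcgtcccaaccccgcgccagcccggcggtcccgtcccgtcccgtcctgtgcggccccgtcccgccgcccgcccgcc
TPM1, chr15:63048239-63048538, plus strand: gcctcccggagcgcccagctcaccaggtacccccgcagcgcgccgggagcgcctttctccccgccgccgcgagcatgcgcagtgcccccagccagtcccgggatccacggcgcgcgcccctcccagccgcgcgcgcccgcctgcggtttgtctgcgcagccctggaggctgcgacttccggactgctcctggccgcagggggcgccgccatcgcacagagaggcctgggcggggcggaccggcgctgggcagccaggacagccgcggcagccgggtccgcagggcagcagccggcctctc

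A CArG box of 10 bases was found in a window of 10 of these 37 members, 27%, against 1.6% of the 27305 genes with a window. A gene counted when any of its windows matched, and the shares were not adjusted for the number of windows. The members had 73 windows, and all genes had 35116, of which 1.29% held a box. The members with a box were ACTG1, ACTG2, ACTN1, CNN2, FHL2, LPP, MYLK, SRF, TGFB1I1 and TPM4. In ACTN1, FHL2, LPP, SRF, TGFB1I1 and TPM4 at least 1 other window held none. A match is a description of letters and not a site of binding, and the members come from a class known for such boxes. In the windows shown, the box started 51 bases before the transcription start in TGFB1I1, 94 in MYLK, 183 in LPP and 89 in CNN2. Those of ACTG2 started at 110 and 73. A gene can have several starts, and which transcript begins at a window was not examined. The MYLK window is thus not shown to be the promoter of the kinase. The size of the change was compared between holders of a box and the other members. The median log2 fold change was 0.35 in the 10 members with a box and 0.36 in the 27 without, and 5 and 13 of them were higher at an adjusted p below 0.01. None of the members with a box was called higher, against 11.1% of those without, namely CNN3, TPM1 and TPM2. TAGLN, also called higher, had no window and stands in neither group. Only exact matches counted, so ACTA2, with ccctatatgg in a window, which differs by 1 letter, was placed among those without. Over all genes tested with a window, the median was 0.0019 for 242 genes with a box and -0.0088 for the other 13997, of which 39 and 1834 were higher at an adjusted p below 0.01. Here 4.96% of the genes with a box were called higher, against 3.15% of those without, so that the shares ran the opposite way to those of the members. The groups of members are small, and nothing is read from this contrast. The E-box letters to which Snail proteins bind, CAGGTG or the reverse complement CACCTG, stood in a window of 8 of the 37 members, 21.6%, against 24.1% of all genes with a window.

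In MCF10A-SNAI1 cells the RNA of a set of actin filament proteins was higher. That of the abundant cytoplasmic actins ACTB and ACTG1 differed by 1.02-fold and 1.04-fold. TAGLN, TPM1, CNN3 and TPM2 were called higher, at 5.29-fold, 4.39-fold, 2.96-fold and 2.49-fold, and no member was called lower. These are 9.52% of the 42 measured members, against 3.1% called higher over all genes tested and 4.08% of the genes above the median level. For calls in the other direction the share over all genes tested was 2.54%. A further 16 members passed the p threshold upward without reaching 2-fold, and 8 of these 16 lay between 1.77-fold and 1.99-fold. Together 20 members, 47.6%, were higher at an adjusted p below 0.01, against 12.1% of all genes tested and 17% of genes above the median level. The members FSCN1, PXN, LIMA1 and CNN2, 9.52%, were lower at such a p, against 11.2% of all genes tested, and 18 members did not reach it. The median log2 fold change was 0.34 over the members and -0.013 over all genes tested. The log2 fold change was above 0 for 35 members, 83.3%, against 47.4% of all genes tested. For 27 members all MCF10A-SNAI1 arrays lay above all MCF10A arrays, against 23.7% of all genes tested, for 5 they lay below, against 24.6%, and 10 overlapped. Of the 11219 genes above the median level, to which 37 members belong, 3519 lay above in this way and 3701 below. With a threshold of 1.5-fold, chosen after seeing the data, 15 members were higher and 1 lower, against 7.5% and 6.24% of all genes tested.

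**Figure D1:**
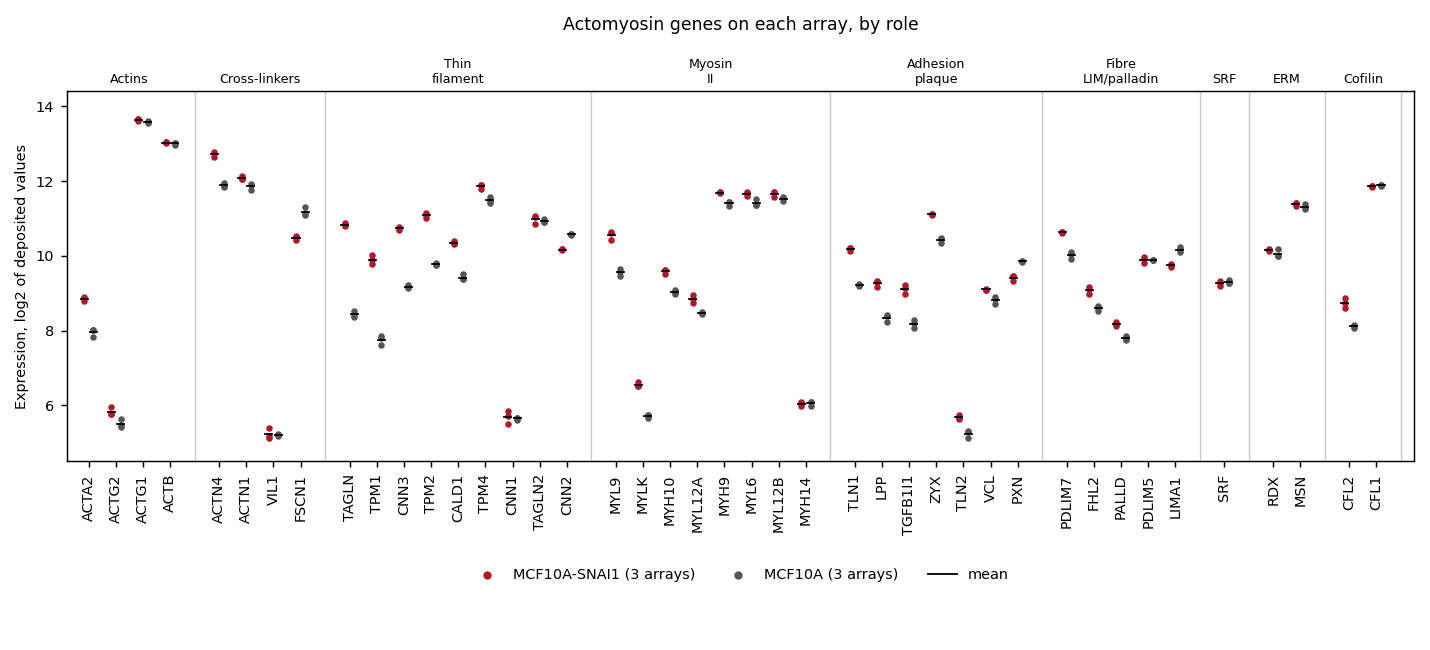
Expression of the 42 measured members on each array, in log2 of the deposited values (vertical axis), with genes grouped by role (horizontal axis); red points are the 3 MCF10A-SNAI1 arrays, grey points the 3 MCF10A arrays and black bars their means. TAGLN, TPM1, CNN3 and TPM2 show the widest gaps between the lines, and ACTB, ACTG1 and CFL1 show almost none.

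SNAI1 itself, as a check of the lines, read 10.50, 10.53 and 10.50 in MCF10A-SNAI1 cells, against 5.80, 5.73 and 5.77 in MCF10A cells. Arrays of 1 line correlated across probe sets at a Pearson r of 0.995 to 0.996, and arrays of different lines at 0.977 to 0.978. The array medians lay between 6.04 and 6.09. Of 10 listed markers of basal mammary epithelium 7 were measured, and all 7, which include KRT5, KRT14, EPCAM and CDH1, were called lower in MCF10A-SNAI1 cells. Their mean level over genes lay between 7.01 and 7.13 on the MCF10A-SNAI1 arrays and between 11.25 and 11.30 on the MCF10A arrays. For 8 markers of fibroblasts it lay between 7.53 and 7.63 in MCF10A-SNAI1 and between 5.25 and 5.29 in MCF10A cells. Of these, 4 were called higher, namely DCN, COL3A1, COL1A1 and LUM, at log2 fold changes of 8.26, 5.14, 2.57 and 1.53. COL1A2, PDGFRA, PDGFRB and THY1 were not called, at 0.076 to 0.40, so the shift of the mean rests on part of the list. None of 5 defining smooth muscle, 5 endothelial or 4 measured leukocyte markers was called, and their part in the results on the members was not tested. RNA was taken from whole cultures, in which fewer cells of a type and less RNA per cell cannot be told apart.

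The largest changes belonged to genes of proteins that coat the actin filament. TAGLN encodes transgelin, a calponin-related protein that bundles actin and is an early marker of smooth muscle. It read 10.79, 10.83 and 10.89 in MCF10A-SNAI1 cells, against 8.52, 8.42 and 8.35 in MCF10A cells. The arrays of the lines were more than 2 log2 units apart, a log2 fold change of 2.40 (standard error 0.069, limma adjusted p = 1.36e-06). Its relative TAGLN2, the transgelin of many non-muscle cells, overlapped between the lines at 11.04, 11.06 and 10.85 in MCF10A-SNAI1 and 10.99, 10.92 and 10.91 in MCF10A cells (limma adjusted p = 0.785).

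TPM1 and TPM2 encode tropomyosins, coiled coils that run along the filament and decide which other proteins can reach it. TPM1 read 9.77, 9.89 and 10.01 in MCF10A-SNAI1 cells, against 7.80, 7.86 and 7.61 in MCF10A cells (log2 fold change 2.13 with a standard error of 0.095, limma adjusted p = 9.61e-06). TPM2 read 11.02, 11.14 and 11.10 in MCF10A-SNAI1 cells, against 9.75, 9.81 and 9.75 in MCF10A cells (log2 fold change 1.31 with a standard error of 0.061, limma adjusted p = 1.22e-05). Both were separated between the lines on all arrays. TPM4, a tropomyosin of non-muscle cells, was measured by a pair of probe sets that differed in size of change. The brighter of them gave 11.86 ± 0.059 in MCF10A-SNAI1 and 11.49 ± 0.079 in MCF10A cells (SD, n = 3 arrays each; log2 fold change 0.38, limma adjusted p = 0.00672). The dimmer one gave a log2 fold change of 0.15 (limma adjusted p = 0.168).

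The calponins, which bind actin and dampen the myosin ATPase, went separate ways. CNN3, the acidic calponin, read 10.70, 10.77 and 10.74 in MCF10A-SNAI1 cells, against 9.15, 9.21 and 9.14 in MCF10A cells (log2 fold change 1.57 with a standard error of 0.059, limma adjusted p = 4.39e-06). CNN2 read 10.17, 10.15 and 10.18 in MCF10A-SNAI1 cells, against 10.59, 10.57 and 10.56 in MCF10A cells. It was lower on every MCF10A-SNAI1 array, though by under 2-fold (log2 fold change -0.41, limma adjusted p = 0.00158). CNN1, the basic calponin of differentiated smooth muscle, overlapped between the lines at 5.69 ± 0.17 in MCF10A-SNAI1 and 5.65 ± 0.035 in MCF10A cells (SD, n = 3 arrays each). The 95% interval of its log2 fold change ran from -0.18 to 0.26. CALD1, caldesmon, which blocks the binding of myosin to actin until it is released by calmodulin or phosphorylation, read 10.30, 10.40 and 10.34 in MCF10A-SNAI1 cells, against 9.51, 9.38 and 9.37 in MCF10A cells. That is 1.90-fold (limma adjusted p = 9.24e-05), just under the fold threshold. In all, 4 of 9 measured genes of the filament coat were called higher, against 3.1% of all genes tested and 4.08% of genes above the median level, with a median log2 fold change of 0.93.

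**Figure D2:**
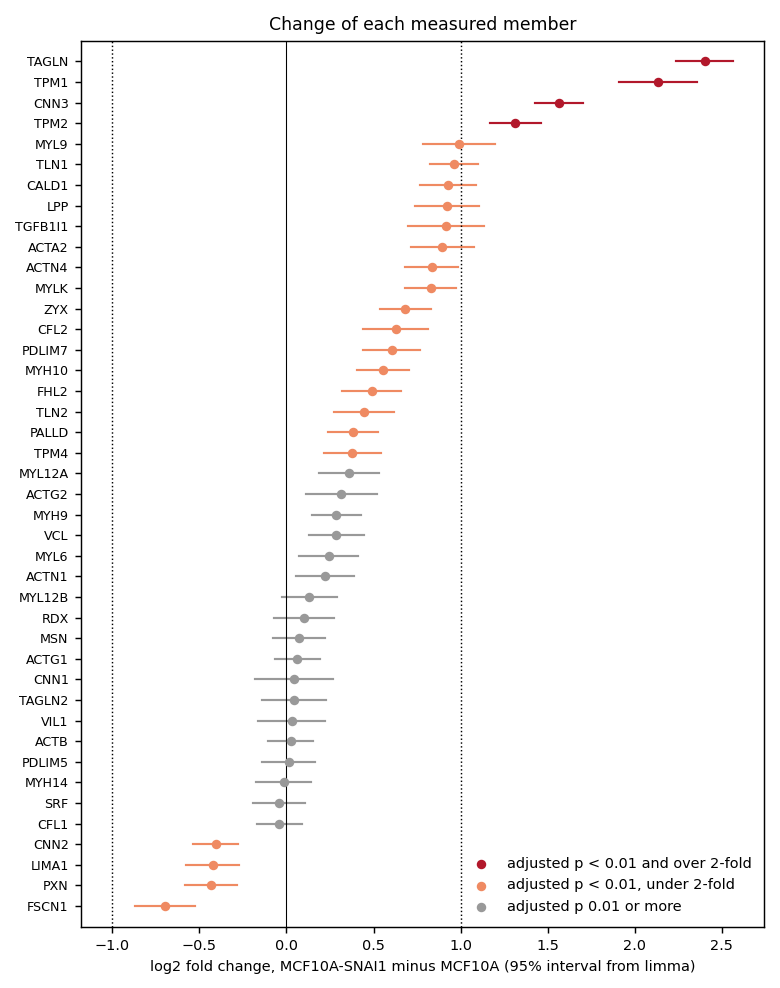
Log2 fold change of each measured member, MCF10A-SNAI1 minus MCF10A (horizontal axis), with the 95% interval from limma; dotted lines mark a 2-fold change. TAGLN, TPM1, CNN3 and TPM2 lie beyond the line on the right, and 8 further members lie between 1.77-fold and 1.99-fold. Of the 7 members to the left of 0, FSCN1, PXN, LIMA1 and CNN2 have an adjusted p below 0.01.

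Among the actins, only smooth muscle alpha-actin differed at an adjusted p below 0.01. ACTA2 read 8.89, 8.86 and 8.79 in MCF10A-SNAI1 cells, against 7.82, 8.01 and 8.03 in MCF10A cells. The arrays did not overlap, and the change was 1.86-fold (log2 fold change 0.89 with a standard error of 0.077, limma adjusted p = 1.98e-04). ACTG2, the gamma-actin of enteric smooth muscle, read 5.77, 5.95 and 5.76 in MCF10A-SNAI1 cells, against 5.63, 5.47 and 5.43 in MCF10A cells (limma adjusted p = 0.0352). The cytoplasmic actins make up most of the filaments of non-muscle cells. ACTB read 13.01, 13.03 and 13.04 in MCF10A-SNAI1 and 13.01, 13.02 and 12.97 in MCF10A cells, and the 95% interval of its log2 fold change ran from -0.11 to 0.15. ACTG1 read 13.65, 13.65 and 13.61 in MCF10A-SNAI1 and 13.55, 13.60 and 13.57 in MCF10A cells (limma adjusted p = 0.522). The change of ACTG1 had the opposite sign after quantile normalization, at -0.0224. Both lay at or above percentile 99.6 of all probe sets in either line, and whether an array still resolves changes at such a level was not tested. The actins are nearly identical in their coding sequence, so how much of a signal comes from a relative is uncertain.

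Among the 8 genes of myosin II, 3 were higher at an adjusted p below 0.01, namely MYL9, MYLK and MYH10, all under 2-fold, beside 12.1% of all genes tested, and none was lower. MYL9, the regulatory light chain of smooth muscle, read 10.63, 10.60 and 10.41 in MCF10A-SNAI1 cells, against 9.56, 9.65 and 9.45 in MCF10A cells. At 1.99-fold it lay at the threshold (log2 fold change 0.99 with a standard error of 0.086, limma adjusted p = 2.13e-04). It passed without MCF10A-SNAI1 replicate 3, at 1.06, without MCF10A replicate 2, at 1.04, and after quantile normalization, at 1.01. MYLK, the kinase that phosphorylates this light chain, read 6.62, 6.51 and 6.52 in MCF10A-SNAI1 cells, against 5.75, 5.67 and 5.75 in MCF10A cells (1.77-fold, limma adjusted p = 1.14e-04). The non-muscle light chains MYL12A and MYL12B, near-identical neighbours that probes may not tell apart, had log2 fold changes of 0.36 and 0.13, and the essential light chain MYL6 one of 0.24. None of these reached an adjusted p of 0.01.

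Of the heavy chains, MYH10, non-muscle myosin IIB, read 9.63, 9.62 and 9.52 in MCF10A-SNAI1 cells, against 9.03, 9.07 and 8.99 in MCF10A cells (1.47-fold, limma adjusted p = 7.22e-04). MYH9, non-muscle myosin IIA, gave 11.69 ± 0.013 in MCF10A-SNAI1 and 11.40 ± 0.054 in MCF10A cells (SD, n = 3 arrays each; log2 fold change 0.29, limma adjusted p = 0.0112). MYH14, myosin IIC, known from epithelia, gave 6.04 ± 0.066 in MCF10A-SNAI1 and 6.06 ± 0.063 in MCF10A cells (SD, n = 3 arrays each; limma adjusted p = 0.916). The heavy chains therefore spanned log2 fold changes of -0.015 to 0.56, and the MCF10A-SNAI1 arrays lay wholly above the MCF10A arrays for MYH9 and MYH10 only.

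Most members of the focal adhesion plaque were higher. Of 7 measured, 5 were higher at an adjusted p below 0.01, against 12.1% of all genes tested, PXN was lower, against 11.2% of all genes tested, and VCL did not reach it. Their median log2 fold change was 0.68. TLN1, talin-1, which activates integrins and links them to actin, read 10.14, 10.20 and 10.22 in MCF10A-SNAI1 cells, against 9.25, 9.22 and 9.19 in MCF10A cells (1.95-fold, limma adjusted p = 3.92e-05). Its relative TLN2 was higher by 0.45 on the log2 scale (limma adjusted p = 0.00406). The zyxin family followed, with LPP at 9.17, 9.30 and 9.32 in MCF10A-SNAI1 cells, against 8.23, 8.40 and 8.40 in MCF10A cells (1.89-fold, limma adjusted p = 1.77e-04). ZYX, zyxin, which is recruited to stress fibres under tension, stood at 1.60-fold (limma adjusted p = 2.61e-04).

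TGFB1I1 and PXN encode the related scaffold proteins Hic-5 and paxillin, and they moved apart. TGFB1I1 read 9.13, 8.97 and 9.22 in MCF10A-SNAI1 cells, against 8.21, 8.06 and 8.29 in MCF10A cells (log2 fold change 0.92, limma adjusted p = 4.24e-04). PXN read 9.33, 9.46 and 9.45 in MCF10A-SNAI1 cells, against 9.85, 9.83 and 9.87 in MCF10A cells (log2 fold change -0.43, limma adjusted p = 0.00239). A second, dimmer probe set of PXN also gave -0.43. VCL, vinculin, which reinforces talin under load, was 9.10 ± 0.016 in MCF10A-SNAI1 and 8.81 ± 0.090 in MCF10A cells (SD, n = 3 arrays each; limma adjusted p = 0.0198).

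The cross-linkers and the stress fibre adaptors were mixed. ACTN4, alpha-actinin-4, read 12.77, 12.74 and 12.65 in MCF10A-SNAI1 cells, against 11.86, 11.95 and 11.85 in MCF10A cells (1.78-fold, limma adjusted p = 1.26e-04). Its relative ACTN1 gave 0.22 on the log2 scale (limma adjusted p = 0.0643). FSCN1, fascin, which packs actin into the tight bundles of filopodia, had the lowest log2 fold change of all members. It read 10.52, 10.49 and 10.42 in MCF10A-SNAI1 cells, against 11.29, 11.13 and 11.10 in MCF10A cells (log2 fold change -0.70, limma adjusted p = 5.01e-04). VIL1, the microvillus protein villin, lay at 5.24 ± 0.14 in MCF10A-SNAI1 and 5.21 ± 0.019 in MCF10A cells (SD, n = 3 arrays each), below the median of the arrays in both lines.

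Among the adaptors, PDLIM7, FHL2 and PALLD, which bind alpha-actinin, integrins or actin in stress fibres, were 1.52-fold, 1.40-fold and 1.30-fold higher, with adjusted p between 7.17e-04 and 0.00375 from limma. PDLIM5 overlapped between the lines (limma adjusted p = 0.934). LIMA1, known as EPLIN, which stabilizes actin at the junctional belt and links it to cadherin-catenin complexes, read 9.75, 9.78 and 9.70 in MCF10A-SNAI1 cells, against 10.17, 10.24 and 10.10 in MCF10A cells. It was thus lower on every MCF10A-SNAI1 array, by under 2-fold (log2 fold change -0.42, limma adjusted p = 0.00285).

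The measured regulators known to drive many of these genes did not pass the test at the RNA level. SRF read 9.32, 9.27 and 9.20 in MCF10A-SNAI1 and 9.28, 9.27 and 9.35 in MCF10A cells, with a 95% interval of the log2 fold change from -0.19 to 0.11. MKL2, measured under its present symbol MRTFB, gave -0.046 on the log2 scale (limma adjusted p = 0.71). Activity of these proteins, which depends on their location in the cell, was not measured. Of the ERM proteins, which anchor actin to the membrane, RDX and MSN had log2 fold changes of 0.10 and 0.073 and overlapped between the lines. The filament-severing cofilins differed, with CFL2, the cofilin of muscle, at 8.61, 8.74 and 8.86 in MCF10A-SNAI1 cells, against 8.14, 8.13 and 8.07 in MCF10A cells (1.55-fold, limma adjusted p = 0.00113). CFL1, the cofilin of non-muscle cells, had a 95% interval of the log2 fold change from -0.17 to 0.09.

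**Figure D3:**
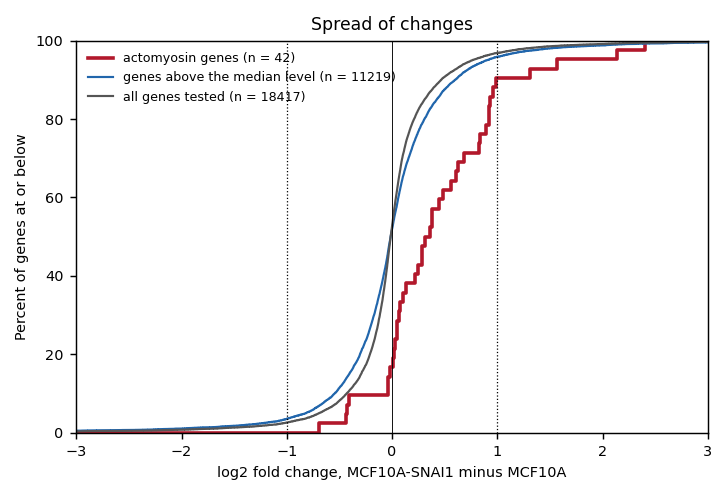
Percent of genes (vertical axis) at or below a given log2 fold change, MCF10A-SNAI1 minus MCF10A (horizontal axis), for the 42 measured actomyosin genes (red), the 11219 genes above the median level (blue) and all 18417 genes tested (grey); dotted lines mark 2-fold. The red line is shifted to the right, with a median of 0.34 against -0.013 for all genes tested.

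Because several members are related genes, their changes were compared within each array. For 14 pairs, the log2 level of the second gene was subtracted from that of the first on every array, and the lines were compared by the difference of this value. A probe set's level cannot be set against another's, but a shift of the difference shows that the genes changed unequally. An exact two-sided permutation test over 6 arrays cannot give a p below 0.1, and every pair reached that value, before and after adjustment over the 14 pairs. The size is therefore given with its standard error. The arrays of the lines did not overlap in any of the 14 pairs, some of which share a gene. Of single genes, 48.3% of all those tested did not overlap, but this share was not computed for pairs and nothing is read from the count.

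The widest shift was that of TAGLN minus TAGLN2, which lay 2.36 (standard error 0.098) higher in MCF10A-SNAI1 cells. TGFB1I1 minus PXN was 1.35 (standard error 0.11) higher, TPM2 minus TPM4 0.94 (standard error 0.031) and ACTA2 minus ACTB 0.87 (standard error 0.083). In each of these the first gene is the one known from muscle or from smooth muscle-like cells. The same held for CFL2 minus CFL1, at 0.67 (standard error 0.072), and for MYL9 minus MYL12A, at 0.63 (standard error 0.11). It did not hold for every pair, and the pairs that follow it were not counted. The pairs were chosen with earlier results known, and no pattern of muscle forms is read from them. CNN1 minus CNN3 was lower by 1.52 (standard error 0.11) in MCF10A-SNAI1 cells, where the interval of the muscle form CNN1 included 0. Whether TLN2, which changed less than TLN1, or PDLIM5, which changed less than PDLIM7, is a further exception was not examined. Other pairs were PDLIM7 minus PDLIM5 at 0.59 (standard error 0.073), CNN1 minus CNN2 at 0.45 (standard error 0.10) and ACTG2 minus ACTG1 at 0.25 (standard error 0.091). The shift of CNN1 minus CNN2 came with a lower CNN2, at a log2 fold change of -0.41, while CNN1 stood at 0.043. ACTG2 itself did not reach an adjusted p of 0.01 (limma adjusted p = 0.0352). Within the non-muscle myosins, MYH10 minus MYH9 was 0.27 (standard error 0.043) higher and MYH14 minus MYH9 was shifted by -0.30 (standard error 0.070). Talin-1 and alpha-actinin-4 changed more than their relatives, with TLN2 minus TLN1 at -0.52 (standard error 0.070) and ACTN1 minus ACTN4 at -0.61 (standard error 0.052).

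**Figure D4:**
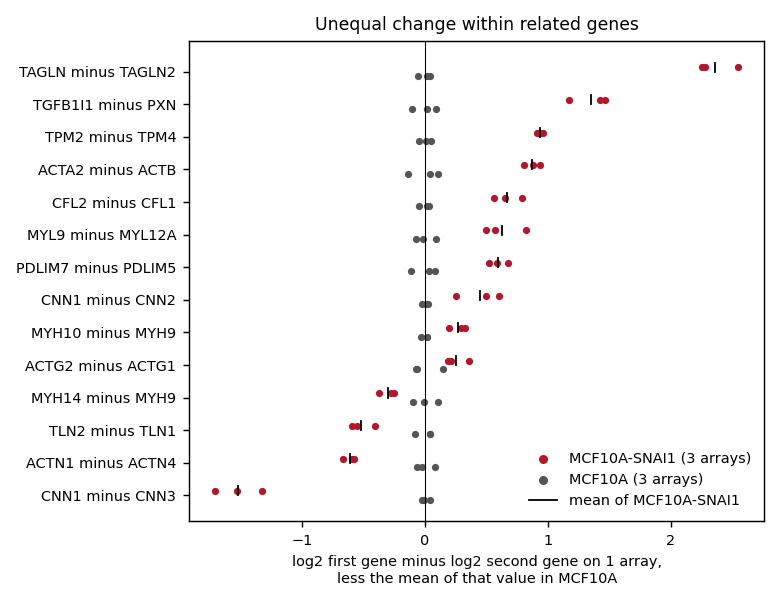
For each of 14 pairs of related genes, the log2 level of the first minus that of the second on 1 array, less the mean of that value over the MCF10A arrays (horizontal axis); red points are MCF10A-SNAI1 arrays, with their mean as a black mark, and grey points MCF10A arrays. TAGLN minus TAGLN2 lies farthest to the right, at 2.36, and CNN1 minus CNN3 farthest to the left, at -1.52.

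Some of the members are neighbours in the genome, by the order of protein-coding genes in GRCh38.p14. TPM2 lies next to TLN1 on chromosome 9, and TPM1 next to TLN2 on chromosome 15, so that a tropomyosin gene stands beside a talin gene in both places. All of these were higher in MCF10A-SNAI1 cells at an adjusted p below 0.01, beside 47.6% of the members and 12.1% of all genes tested. Their log2 fold changes were 1.31, 0.96, 2.13 and 0.45 for TPM2, TLN1, TPM1 and TLN2. The measured genes that flank them did not reach that p. CREB3 beside TLN1 stood at 0.29, LACTB beside TPM1 at -0.045 and C2CD4B beside TLN2 at -0.019 (limma adjusted p = 0.0468, 0.734 and 0.918). ACTB and FSCN1 also adjoin each other on chromosome 7, at 0.023 and -0.70. Their flanks FBXL18 and RNF216 stood at -0.33 and 0.40 (limma adjusted p = 0.0172 and 0.00654). MYL12A and MYL12B adjoin on chromosome 18, at 0.36 and 0.13. Their flanks MYOM1 and TGIF1 stood at 0.026 and 0.52 (limma adjusted p = 0.939 and 6.85e-04).

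Genes of the same machinery outside the members, from 3 lists, had medians of the log2 fold change between -0.010 and 0.017. In the list of other smooth muscle genes, 18 of 19 were measured and 1 was called, 5.56%, beside 5.64% of all genes tested. This gene was NEXN, an actin-binding protein of muscle Z-discs and adhesions, with 8.66, 8.89 and 8.78 in MCF10A-SNAI1 cells, against 6.20, 6.26 and 5.95 in MCF10A cells (log2 fold change 2.64, limma adjusted p = 5.00e-06). The defining markers MYH11, DES, MYOCD, LMOD1 and SMTN had log2 fold changes between -0.17 and 0.057, with adjusted p between 0.209 and 0.951 from limma. MYOCD, the SRF coactivator of smooth muscle, lay at 4.47 in MCF10A-SNAI1 and 4.45 in MCF10A cells, at percentile 27.5 of all probe sets in MCF10A-SNAI1 cells. The table holds no detection calls, so a low level does not tell whether a gene was expressed. Smooth muscle is thus used here for the members' known roles, since none of its defining markers separated the lines past the threshold.

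Of 30 other genes of adhesions and stress fibres, 4 were called higher and 4 lower, 26.7%, beside 3.1% and 2.54% of all genes tested, or 5.64% in either direction. Their median log2 fold change was -0.010. The kindlins, which activate integrins together with talin, went opposite ways. FERMT2, kindlin-2, read 10.14, 10.22 and 10.18 in MCF10A-SNAI1 cells, against 8.10, 8.22 and 8.11 in MCF10A cells (log2 fold change 2.04, limma adjusted p = 1.94e-06). FERMT1, the kindlin of epithelia, read 7.52, 7.69 and 7.63 in MCF10A-SNAI1 cells, against 9.99, 10.13 and 10.03 in MCF10A cells (log2 fold change -2.44, limma adjusted p = 1.50e-06). The tensins, which link integrin tails to actin, also split. TNS3 was higher at 1.60, and TNS4, which lacks the actin-binding region of other tensins, was at 6.31 in MCF10A-SNAI1 and 11.28 in MCF10A cells, a fall of 31.4-fold (log2 fold change -4.97, limma adjusted p = 7.06e-08). PARVA, alpha-parvin, was higher at 1.14, and TES and ABLIM1 were lower at -2.06 and -1.14. KANK2, at 1.02 (limma adjusted p = 0.00427), lost its call in 5 of the 6 fits that left out an array and kept it without MCF10A-SNAI1 replicate 2. In those 5 its limma adjusted p lay between 0.0108 and 0.0176. It also fell under 2-fold without MCF10A-SNAI1 replicate 1, at 0.8906, and without MCF10A replicate 3, at 0.8898.

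In the list of other actin dynamics genes 30 of 36 were measured, and 1 was called higher and 5 lower, 20%, beside 3.1% and 2.54% of all genes tested, or 5.64% in either direction. EPS8, which caps and bundles filaments, was higher at 1.70. The bundling proteins PLS1 and LCP1 were lower at -2.94 and -2.89, and the motor proteins MYO5C and MYO10 at -2.52 and -2.06. PLS1, plastin-1, is known from microvilli of epithelia, as is villin, whose gene VIL1 stood at a log2 fold change of 0.030. MYO10 is known from filopodia, where fascin also acts. The sites of the other listed genes, EPS8 at 1.70 among them, were not compared, and no pattern by site is read from these genes.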

How the data were processed

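RNA of MCF10A-SNAI1 and MCF10A cells, 3 arrays each, was measured on Affymetrix HuGene arrays. The table that the authors deposited holds 33297 probe sets on a log2 scale. GeneSpring GX with GC RMA is named in the study's methods, while GCOS, Expression Console 1.1 and MAS5 stand in the submitters' processing notes, and which program made the table was not given in the sources used here. Normalization can compress or shift differences between arrays, and the values were used as deposited, without a filter.

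By the platform annotation 19460 probe sets map to 1 gene symbol, 1754 to more than 1 and 12083 to none. Each gene was represented by its brightest probe set of the first kind, by the mean of 6 arrays. Symbols of 18392 of the 18417 genes had an entry in GRCh38.p14. A linear model with empirical Bayes moderation was fitted to all probe sets with limma 3.58.1 in R 4.3.3, after the script was tested on simulated data. Alternatives were quantile normalization, median centring, the replicate number as a block, leaving out each array, filters on dim probe sets, trended moderation, the methods' t-test, other fold thresholds and the mean of a gene's probe sets.

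The members, the lists and the pairs were chosen with earlier results of these data known. The text names SNAI1, CDH1, all members, some of the listed markers and up to 4 called genes per direction of each further list. Another list is not reported here. MKL2 and the genes beside neighbouring members stand outside this rule. P-values measure the spread between these arrays, which may be technical, and their number limits the precision. Promoter windows are from RefSeq.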

Additional observations from a re-analysis of the deposited data

How the results depend on the processing

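Of 583 values of members under 14 alternatives, 574 kept their direction and their call, which takes the p and fold thresholds together. Changes of side at the p threshold alone were not counted. They did occur, as for MYL12A after quantile normalization and for CNN2 with the replicate block. A further 3 values crossed the fold threshold, all of MYL9, and 6 had the opposite sign, none of them called. ACTG1 gave -0.0224 after quantile normalization. With an array left out, VIL1 ranged from -0.0478 to 0.0819, CNN1 from -0.0349 to 0.135, PDLIM5 from -0.0270 to 0.0520 and MYH14 from -0.0513 to 0.0208, with MYH14 at 0.00622 without MCF10A replicate 3. The members called higher were then 4 to 5 and those called lower 0. With no fold threshold 20 members were higher and 4 lower, and the lists of other smooth muscle, adhesion and actin dynamics genes had 2, 7 and 7 higher and 0, 6 and 7 lower, against 2220 higher and 2059 lower genes in all. With 1.5-fold, chosen after seeing the data, the counts were 15 and 1 for members, 4 and 7 for actin dynamics, and 1382 and 1150 in all. With only probe sets above the median, where fewer were tested, 3 actin dynamics genes were called lower.

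Whether a replicate number marks a shared day or batch was not given in the sources used here, and the arrays were treated as sharing only a number. Deviations of same-numbered arrays from their lines' means correlated at 0.115, 0.122 and -0.00618, and 4 of 6 arrays correlated best with their own number. With the replicate block 4 members were called higher and 0 lower, and KANK2 missed the threshold (limma adjusted p = 0.01034). Under the methods' t-test the members gave the same counts and KANK2 again missed it. Detection calls were not used here, so dim genes such as VIL1 and CNN1 could not be set against background.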
